A study of Mus musculus with 12 samples.

Results

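Cholesterol and fatty acids are built from acetyl-CoA by enzymes whose genes share a pair of transcription factors, SREBP1 and SREBP2. The results concern 33 genes of this programme. They were chosen by name as genes of this synthesis or of its SREBP control, and earlier results of these data were known. They comprise 8 genes of the mevalonate route, 12 of the route from farnesyl diphosphate to cholesterol, 6 that sense or carry sterols and 7 of fatty acid synthesis. Of 53465 genes listed in all, 26760 had a read in some library and 14324 reached a mean of 10 normalized counts in at least 1 group and were tested. All 33 genes passed this filter.

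RNA was sequenced from 12 cultures of bone marrow-derived dendritic cells (BM-DCs), which are grown from progenitors of the marrow with GM-CSF and serve as a model of antigen-presenting cells. All came from wild type C57BL/6 mice aged 12 weeks and were cultured for 9 days, with 3 libraries in each of 4 groups. The groups address how oligomeric Aβ1-42 changes the RNA of BM-DCs that are immature or matured with lipopolysaccharide (LPS), a bacterial ligand of TLR4. Ctrl cells had no treatment, LPS cells had LPS at 100 ng/ml for 18 h, Aβ cells had Aβ1-42 oligomers at 0.5 µM for 4 days, and Aβ+LPS cells had both, with Aβ begun before LPS. All 4 groups share the GM-CSF medium, which contains serum and thus lipoprotein. No library with a scrambled peptide was among those analysed here, so Aβ was set against no peptide, and the 2 agents acted for different times. In the paper's scheme Aβ ran for 4 days in total from the day before LPS. The time of harvest after LPS is not stated as such, and this scheme would place it days after LPS began. Thus LPS vs. Ctrl need not be a response at 18 h, nor the 9 days the whole time in culture. The paper set these cultures up as its antigen presentation assays, and its text does not say whether ovalbumin or T cells were added here. Nothing states that the cultures of a group came from separate animals, so p-values measure the spread between these cultures, which may be technical. Libraries held 23415609 to 29690965 reads in genes (median 26410222), log2 values of libraries of a group correlated with r of 0.9898 to 0.9927 across genes, which are not independent, and no library stood apart. Values are normalized counts, that is, reads in a gene divided by a size factor of the library.

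In the mevalonate route, acetyl-CoA becomes HMG-CoA, mevalonate and then the isoprenoids, which also serve as anchors for proteins. The sterol route joins farnesyl units into squalene, closes the rings to lanosterol and trims that to cholesterol. When sterols are plentiful in the endoplasmic reticulum, INSIG proteins hold SCAP and its SREBP cargo there. When sterols are scarce, SCAP carries SREBP to the Golgi, where it is cut and its free end moves to the nucleus and binds sterol regulatory elements in promoters. SREBP2 acts mainly on genes of cholesterol synthesis and uptake, and SREBP1 mainly on those of fatty acid synthesis. In macrophages and dendritic cells this programme is known to respond to interferon and to ligands of Toll-like receptors.

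Promoter letters were read to show what the sequence ahead of these genes looks like. RefSeq promoters on GRCm38.p6, each of 300 bases from 250 before to 50 after the start, were matched by gene for 27 of the 33 genes. The sterol regulatory element was spelled TCACNCCAC and searched on both strands. It was found in 1 of the 27 genes, Hmgcs1, and in 1.436% of the 27025 genes with a promoter. After this was seen, 4 other spellings were tried. TCACNCCA, the first spelling without its last letter, was found in 3 of the 27 genes (Hmgcs1, Msmo1 and Srebf2) and in 4.969% of all genes, and CACNCCAC in 3 (Acat2, Hmgcs1 and Insig1) and in 7.123%. CACNCCA, which both contain, was found in 6 and in 20.562%. TCACNCCAC, TCACNCCAT or a longer form of 10 letters was found in Hmgcs1, Msmo1 and Srebf2 and in 2.424% of all genes. CCAAT, the element of the NF-Y factor that often lies close to sterol regulatory elements, was found in 23 of the 27 genes against 41.058% of all genes, and GGGCGG, the GC box, in 22 against 38.202%. CACGTG, the E box, was found in 5 against 8.093%. A match is a description of letters and not evidence of binding, and no match says only that these letters are not in this window.

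The stretches with a match to TCACNCCA are shown because Hmgcs1, Msmo1 and Srebf2 are also genes whose RNA changed in LPS vs. Ctrl, Aβ vs. Ctrl and Aβ+LPS vs. LPS, and only the Hmgcs1 stretch follows from the first spelling. Capitals mark that match and each CCAAT, which reads ATTGG where it lies on the other strand. All stretches end before the annotated starts, except that of Msmo1, which lies inside the longer GENCODE gene and is cut to 30 bases. Hmgcs1 is given for chr13:119690101-119690350, plus strand, with its match 137 bases before the RefSeq start. Msmo1 is given for chr8:64733737-64733766, minus strand, with its match 177 bases before the RefSeq start. Srebf2 is given for chr15:82147019-82147180, plus strand, with its match 162 bases before the RefSeq start. Its stretch ends just before the GENCODE start at 82147181, which precedes the RefSeq start at 82147269.
Hmgcs1: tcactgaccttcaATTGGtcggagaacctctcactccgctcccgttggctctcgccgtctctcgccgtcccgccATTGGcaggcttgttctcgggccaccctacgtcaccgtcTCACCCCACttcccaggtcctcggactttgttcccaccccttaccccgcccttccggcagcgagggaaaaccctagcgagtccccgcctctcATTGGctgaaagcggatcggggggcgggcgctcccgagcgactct
Msmo1: tctcactattcTCACTCCAtccgcgcagcc
Srebf2: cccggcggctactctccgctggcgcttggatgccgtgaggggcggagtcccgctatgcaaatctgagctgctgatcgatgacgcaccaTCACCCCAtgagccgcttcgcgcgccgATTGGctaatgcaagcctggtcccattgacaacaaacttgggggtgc
The Hmgcs1 stretch holds TCACCCCAC at bases 119690214 to 119690222 and 3 CCAAT boxes. The match in Srebf2, which encodes SREBP2 itself, is TCACCCCA with 1 CCAAT box between it and the start, and that in Msmo1 is TCACTCCA.

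Most of the 33 genes were lower with LPS alone than in Ctrl, 10 of the 12 sterol genes among them. In LPS vs. Ctrl, 19 genes fell and 5 rose at an adjusted p under 0.05 (limma on log2(normalized count + 1), Benjamini-Hochberg over all genes tested). Of all genes tested, 22.5% fell and 23.8% rose. The median log2 fold change was -0.39 for the 33 genes and 0.00 for all genes. In Aβ vs. Ctrl, 17 fell and 7 rose, when 33.7% of all genes fell and 35.1% rose, with medians of -0.22 and 0.02. In Aβ+LPS vs. LPS, which asks what Aβ did to cells that also had LPS, 17 rose and 6 fell, against 27.8% and 28.3% of all genes, with medians of 0.18 and 0.01. In Aβ+LPS vs. Aβ none passed, against 0.0279% of all genes higher and 0.112% lower. The interaction asks whether the effect of Aβ differed with and without LPS, and it passed for 23 genes, 19 with a higher and 4 with a lower value in the presence of LPS, against 15.2% and 16.6% of all genes. LPS vs. Ctrl and Aβ vs. Ctrl share the Ctrl libraries, and LPS vs. Ctrl and Aβ+LPS vs. LPS share the LPS libraries, so their values stand side by side here and are not evidence for each other. Libraries of the groups compared did not overlap for 26 of the 33 genes in LPS vs. Ctrl, against 52.7% of all genes tested. The numbers were 25 and 72.3% for Aβ vs. Ctrl, 25 and 60.9% for Aβ+LPS vs. LPS, and 6 and 13.6% for Aβ+LPS vs. Aβ. A lack of overlap named below is thus common among all genes.

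**Figure D1:**
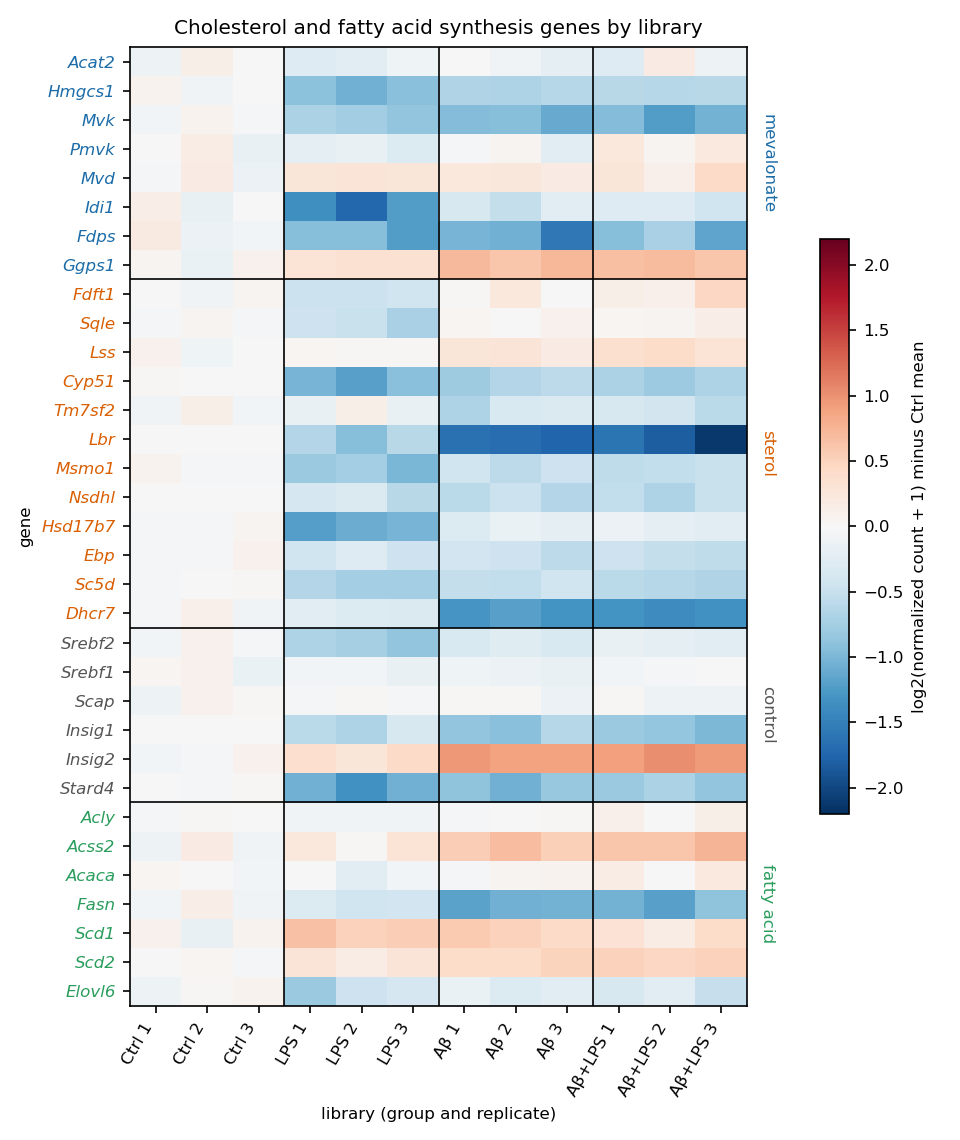
Heat map of the 33 genes (vertical axis, by role) in the 12 libraries (horizontal axis, by group), coloured by log2(normalized count + 1) minus the mean of the 3 Ctrl libraries of the same gene. Hmgcs1, Idi1, Cyp51, Msmo1, Hsd17b7, Srebf2 and Stard4 are bluest (lowest) in LPS, Lbr, Dhcr7 and Fasn are bluest in both Aβ groups, and Insig2 and Ggps1 are reddest (highest) in both Aβ groups.

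Scaling between libraries bears on these counts. Where each library was instead scaled to the same total, the median of all genes moved by 0.11 in LPS vs. Ctrl and by -0.12 in the interaction on the log2 scale. The share of higher genes among all calls then went from 51.3% to 71.3% in LPS vs. Ctrl and from 47.8% to 26.5% in the interaction. The 33 genes then counted 19 lower and 6 higher in LPS vs. Ctrl, 16 and 9 for Aβ vs. Ctrl, 6 and 17 for Aβ+LPS vs. LPS, and 5 and 16 in the interaction. Their medians in that scaling were -0.27, -0.13, 0.15 and 0.31, when those of all genes were 0.12, 0.12, -0.01 and -0.13.

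The libraries also differed in markers of cell division and of cell types, and fewer cells of a type and less RNA per cell cannot be told apart in bulk RNA. Of 14 genes of cell division, 10 fell in LPS vs. Ctrl and all 14 fell in both Aβ vs. Ctrl and Aβ+LPS vs. LPS, with summed levels of 28446 to 29674 normalized counts in Ctrl, 23462 to 24058 with LPS, 6149 to 6386 with Aβ and 5677 to 5884 with both. All 10 dendritic cell markers and all 10 macrophage markers were present, and the summed macrophage markers were 108750 to 110674 in Ctrl, 91596 to 93584 with LPS, 79530 to 82350 with Aβ and 78729 to 82659 with both, with 6, 9 and 8 of 10 lower in LPS vs. Ctrl, Aβ vs. Ctrl and Aβ+LPS vs. LPS. Summed dendritic markers were 93155 to 95253, 82954 to 93635, 94151 to 98232 and 94534 to 102906 in the same order. Single dendritic markers moved more than these sums: 5 of the 10 rose and 3 fell for LPS vs. Ctrl, 7 rose and 2 fell for Aβ vs. Ctrl (log2 changes of -0.83 to 5.52, median 0.56), and 8 rose and 2 fell for Aβ+LPS vs. LPS (-0.46 to 2.54, median 0.95). Single macrophage markers also moved more than their sum, with median log2 changes of -0.67, -1.885 and -1.19 in the same 3 comparisons. Their changes ran from -4.25 to 0.42, -4.90 to 0.69 and -3.645 to 0.23. Adgre1 was the 1 of the 10 that rose in each of these comparisons. B cell markers summed to 12.6 to 23.5 in Ctrl and 87.9 to 111.2 in Aβ+LPS, and 5 of 9 neutrophil, 4 of 6 mast cell and basophil, 5 of 6 T and NK cell and 6 of 7 stroma and adipocyte markers were under 10 in every library. The part of these differences in the results below was not tested.

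Of the 8 mevalonate genes, 4 fell and 2 rose in LPS vs. Ctrl, 4 fell and 2 rose in Aβ vs. Ctrl, and 4 rose and 1 fell in Aβ+LPS vs. LPS. Their summed level was 5444 ± 142 normalized counts in Ctrl, 3913 ± 87.6 with LPS, 4687 ± 49.5 with Aβ and 4825 ± 39.8 with both (mean ± SD, n = 3, as for every mean below). Hmgcs1 (chromosome 13, 119690379 to 119708260, plus strand, GRCm38) encodes the HMG-CoA synthase of the cytosol and was the largest part of this sum. Of the 100-base stretches of its longest transcript, 10.8% also occur in another gene, Gm48342, which lies on the opposite strand. Hmgcs1 stood at 2781, 2512 and 2666 normalized counts in Ctrl, 1423, 1276 and 1402 with LPS, 1675, 1662 and 1722 with Aβ and 1737, 1721 and 1729.5 with both. Every LPS library lay under every other, both Aβ groups were intermediate and Ctrl was highest. The log2 fold change was -0.96 ± 0.05 (standard error, as for each value after ± beside a log2 fold change) in LPS vs. Ctrl (limma, adjusted p = 1.2e-12), -0.65 for Aβ vs. Ctrl (adjusted p = 1.8e-10) and 0.34 for Aβ+LPS vs. LPS (adjusted p = 6.9e-06).

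Idi1 (chromosome 13, 8885501 to 8892451, plus strand), the isomerase that makes the reactive isoprene unit, had the lowest log2 fold change of the 33 genes in LPS vs. Ctrl. Its values were 558, 451 and 504 in Ctrl, 196, 152 and 214 with LPS, 392, 348 and 426 with Aβ and 413, 413 and 370.4 with both. LPS alone was set apart from the other 3 groups, whose ranges ran from 348 to 558. The change was -1.44 ± 0.11 in LPS vs. Ctrl, -0.38 ± 0.11 for Aβ vs. Ctrl and 1.10 ± 0.11 for Aβ+LPS vs. LPS (limma, adjusted p = 8.2e-10, 0.0059 and 3.3e-08). For Idi1, 27.6% of the 100-base stretches of its longest transcript also occur in other genes, among them the pseudogene Gm13502, so its level is uncertain.

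Fdps, which makes farnesyl diphosphate, was the lowest of the 33 genes in Ctrl per length of all annotated exons, at 15.6 ± 1.96 normalized counts per kilobase. It stood at 75.0, 59.5 and 62.4 in Ctrl, 33.8, 33.8 and 27.3 with LPS, 31.5, 31.0 and 21.2 with Aβ and 33.6, 39.6 and 28.6 with both, and the 3 treated groups overlapped. It fell in LPS vs. Ctrl (-1.03 ± 0.23), as well as in Aβ vs. Ctrl (-1.22 ± 0.23), with 0.09 ± 0.23 and adjusted p = 0.75 for Aβ+LPS vs. LPS (limma). Its exons overlap Gm43738 on the same strand by 1124 bases, and reads of the 2 genes may not have been told apart. Mvk, mevalonate kinase, went from 232, 256 and 237 in Ctrl to 149.6, 141 and 132 with LPS, 124, 125 and 111 with Aβ and 125, 103 and 116 with both, with all Ctrl libraries above the rest. Its log2 fold change was -0.78 in LPS vs. Ctrl, and its level with Aβ was 0.499 times that of Ctrl (limma, adjusted p = 1.3e-05 and 1.5e-07). Its fall in Aβ+LPS vs. LPS (-0.30 ± 0.12, adjusted p = 0.038) did not pass without LPS replicate 1 (-0.25), LPS replicate 2 (-0.30), Aβ+LPS replicate 2 (-0.22) or Aβ+LPS replicate 3 (-0.31), with adjusted p from 0.06 to 0.16.

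Ggps1, which extends farnesyl to geranylgeranyl diphosphate for protein anchors, went the other way and rose in all 3 comparisons. Its values were 713, 619.9 and 730.2 in Ctrl, 843, 863 and 863 with LPS, 1122, 1054 and 1134 with Aβ and 1083, 1117 and 1049 with both, without overlap between Ctrl, LPS and the Aβ groups. The changes were 0.32, 0.68 and 0.34 in LPS vs. Ctrl, Aβ vs. Ctrl and Aβ+LPS vs. LPS. Mvd, mevalonate diphosphate decarboxylase, rose in LPS vs. Ctrl (0.27 ± 0.08), as well as in Aβ vs. Ctrl (0.22 ± 0.08), and the latter did not pass without Ctrl replicate 1 (0.20, adjusted p = 0.055) or Ctrl replicate 3 (0.16, adjusted p = 0.1). Pmvk, phosphomevalonate kinase, rose in Aβ+LPS vs. LPS (0.39 ± 0.09, limma adjusted p = 0.0011). In LPS vs. Ctrl it had -0.22 ± 0.09 with adjusted p = 0.054, and passed without Ctrl replicate 3 (-0.30, adjusted p = 0.018) or LPS replicate 2 (-0.26, adjusted p = 0.048). Acat2, the cytosolic thiolase that joins acetyl-CoA units, passed in none, with library values from 173 to 242. Of the 100-base stretches of its longest transcript, 35.3% occur in other genes, Acat3 and Tcp1.

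**Figure D2:**
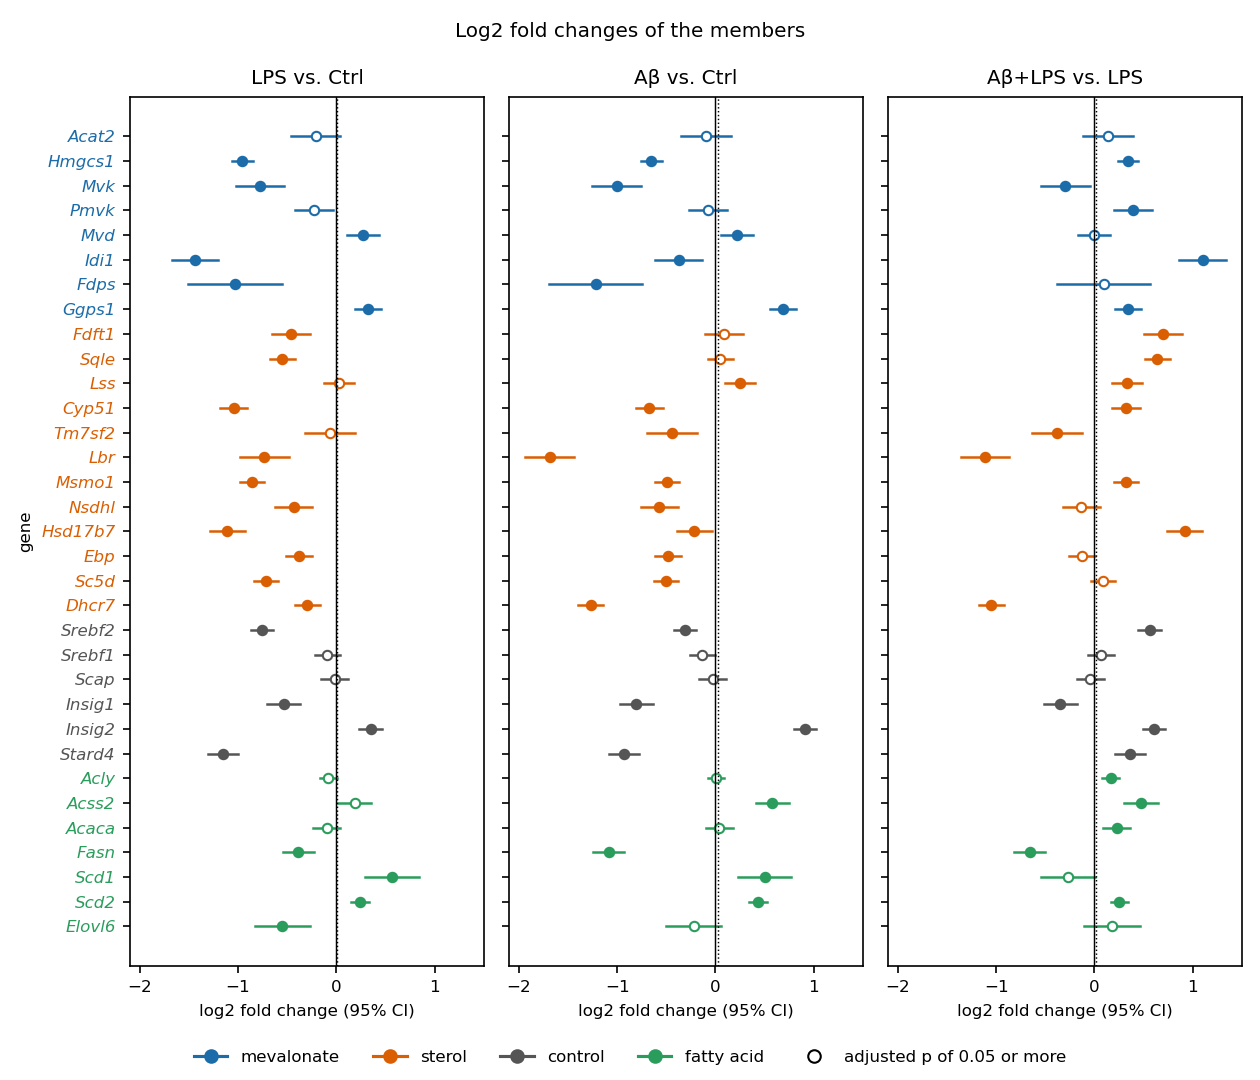
Log2 fold change (horizontal axis) of each of the 33 genes (vertical axis, by role) in LPS vs. Ctrl, Aβ vs. Ctrl and Aβ+LPS vs. LPS, with 95% confidence intervals of limma as bars, filled points for an adjusted p under 0.05 and open points otherwise. The dotted line is the median of all genes tested, and points of the sterol route lie mostly left of it in the first 2 panels and on both sides of it in the panel of Aβ+LPS vs. LPS.

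Of the 12 sterol genes, 10 fell in LPS vs. Ctrl and none rose. In Aβ vs. Ctrl 9 fell and 1 rose, and in Aβ+LPS vs. LPS 6 rose and 3 fell. Their summed level was 11669 ± 58.8 in Ctrl, 7676 ± 254 with LPS, 8456 ± 64.0 with Aβ and 8377 ± 143 with both. Cyp51 (chromosome 5, 4081145 to 4104746, minus strand), the demethylase that acts on lanosterol, stood at 1559, 1505 and 1505 in Ctrl, 747, 668 and 803 with LPS, 882, 973 and 1017 with Aβ and 940.0, 875 and 949 with both. Ctrl was far above the other groups, and LPS lay under both Aβ groups without overlap. Its changes were -1.05 ± 0.07, -0.67 ± 0.07 and 0.32 ± 0.07 in LPS vs. Ctrl, Aβ vs. Ctrl and Aβ+LPS vs. LPS (limma, adjusted p = 3e-11, 1.2e-08 and 0.00037).

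Msmo1, Nsdhl and Hsd17b7 encode the oxidase, dehydrogenase and ketoreductase that together strip methyl groups from the ring. Hsd17b7 (chromosome 1, 169949535 to 169969241, minus strand) was at 400.3, 399 and 426 in Ctrl, 176, 192 and 199.9 with LPS, 330.0, 369 and 358 with Aβ and 375, 349.9 and 347 with both. As for Idi1, LPS alone was set apart, and both Aβ groups lay just under Ctrl. It changed by -1.11 ± 0.08 in LPS vs. Ctrl and by 0.92 ± 0.08 for Aβ+LPS vs. LPS (limma, adjusted p = 4.6e-10 and 5.8e-09). Its fall in Aβ vs. Ctrl (-0.21 ± 0.08, adjusted p = 0.029) did not pass without Ctrl replicate 3 (-0.18, adjusted p = 0.1), without Aβ replicate 1 (-0.17, adjusted p = 0.13) or where libraries were scaled to the same total (-0.12, adjusted p = 0.21). Msmo1 showed the same order as Cyp51, with 2621, 2430.4 and 2444 in Ctrl, 1419, 1492 and 1241 with LPS, 1833, 1678 and 1813 with Aβ and 1689.7, 1709 and 1777 with both, and changes of -0.86, -0.49 and 0.32. Nsdhl fell in both (-0.44 in LPS vs. Ctrl and -0.57 for Aβ vs. Ctrl), with -0.13 ± 0.09 and adjusted p = 0.22 for Aβ+LPS vs. LPS.

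Sqle and Fdft1, which make squalene (Fdft1) and its epoxide (Sqle), fell in LPS vs. Ctrl and rose in Aβ+LPS vs. LPS. Sqle, an oxygen-dependent enzyme that limits the rate of the later route, was at 1587, 1692 and 1574 in Ctrl, 1179, 1156 and 989.6 with LPS, 1668, 1631 and 1725 with Aβ and 1672, 1694 and 1799 with both. LPS alone was low, and the other 3 groups overlapped. Sqle had -0.55 ± 0.06 in LPS vs. Ctrl, 0.05 ± 0.06 for Aβ vs. Ctrl with a 95% interval of -0.08 to 0.18, and 0.64 ± 0.06 for Aβ+LPS vs. LPS (limma, adjusted p = 1.3e-07, 0.47 and 7.9e-09). Fdft1 had -0.47, 0.09 and 0.70 in the same order, the middle value with adjusted p = 0.4. Of the 100-base stretches of its longest transcript, 21.5% occur in other genes, among them Ctsb on the opposite strand. The interval of Aβ vs. Ctrl was -0.10 to 0.28 for Fdft1, so a small fall or a somewhat larger rise within it is not excluded.

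Lbr, Dhcr7 and Tm7sf2 followed another order, with both Aβ groups lowest. Lbr (chromosome 1, 181815335 to 181843046, minus strand) encodes the lamin B receptor, a protein of the inner nuclear membrane that is also a sterol reductase. Of the 100-base stretches of its longest transcript, 10.0% also occur in another gene, Dnah14 on the opposite strand. Lbr stood at 488, 494 and 484 in Ctrl, 311, 255 and 319.8 with LPS, 157, 153 and 145 with Aβ and 160.4, 139 and 111 with both, so that all 6 libraries with Aβ were under all 6 without it. Its changes were -0.73 ± 0.12 in LPS vs. Ctrl, -1.69 ± 0.12 for Aβ vs. Ctrl and -1.11 ± 0.12 for Aβ+LPS vs. LPS, the lowest value of the 33 genes in the last 2. Dhcr7 (chromosome 7, 143823145 to 143848410, plus strand), the reductase that closes the route to cholesterol, was at 1387, 1545 and 1356 in Ctrl, 1194, 1153 and 1141 with LPS, 580.2, 625 and 573 with Aβ and 569.8, 546 and 566 with both. It also separated the 6 libraries with Aβ from the 6 without, and changed by -0.30 ± 0.06, -1.27 ± 0.06 and -1.05 ± 0.06 in the same order (limma, adjusted p = 0.00037, 3.6e-14 and 2.3e-12). Tm7sf2, which encodes a reductase for the same step as Lbr, fell in Aβ vs. Ctrl (-0.44 ± 0.12), as well as in Aβ+LPS vs. LPS (-0.38 ± 0.12, adjusted p = 0.011). The latter did not pass without LPS replicate 2 (-0.28, adjusted p = 0.07) or Aβ+LPS replicate 3 (-0.31, adjusted p = 0.056), and Tm7sf2 overlaps Vps51 on the same strand by 532 bases.

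Ebp, an isomerase, and Sc5d, a desaturase, act late in the route and had lower levels in all 3 treated groups than in Ctrl. Sc5d was at 997 to 1034 in Ctrl, 599 to 651 with LPS, 695 to 745 with Aβ and 636 to 674 with both, and Ebp at 1195 to 1320, 907 to 1022, 831 to 926 and 838 to 899.9 in the same order. Their changes in LPS vs. Ctrl were -0.72 and -0.38, and in Aβ vs. Ctrl -0.50 and -0.48. Neither passed in Aβ+LPS vs. LPS (limma, adjusted p = 0.21 and 0.091). Lss, the cyclase that makes lanosterol, had 0.03 ± 0.07 in LPS vs. Ctrl and rose in Aβ vs. Ctrl (0.25) and Aβ+LPS vs. LPS (0.33).

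Among the 6 genes that sense or carry sterols, Srebf2 passed in LPS vs. Ctrl, Aβ vs. Ctrl and Aβ+LPS vs. LPS and its paralog Srebf1 in none, and the difference between the 2 genes was not tested. Srebf2 (chromosome 15, 82147181 to 82205379, plus strand), which encodes SREBP2, was at 2054, 2281 and 2069.8 in Ctrl, 1337, 1284 and 1173 with LPS, 1699, 1779.6 and 1692 with Aβ and 1914, 1859.6 and 1813 with both. No 2 groups overlapped, with LPS lowest and Ctrl highest. Its changes were -0.76 ± 0.06 in LPS vs. Ctrl, -0.31 ± 0.06 for Aβ vs. Ctrl and 0.56 ± 0.06 for Aβ+LPS vs. LPS (limma, adjusted p = 2.2e-10, 4.1e-05 and 1.5e-08). Srebf1, which encodes SREBP1, ran from 920.3 to 1108 over the 12 libraries and had -0.09 ± 0.06, -0.13 ± 0.06 and 0.07 ± 0.06 in the same order. Without Ctrl replicate 3, the lowest of its Ctrl libraries, Srebf1 passed in LPS vs. Ctrl (-0.16, adjusted p = 0.039) and Aβ vs. Ctrl (-0.21, adjusted p = 0.0064). Per kilobase of annotated exons, the level of Srebf1 relative to Srebf2 was 0.62 ± 0.0427 in Ctrl, 0.981 ± 0.0268 with LPS, 0.698 ± 0.0255 with Aβ and 0.697 ± 0.0358 with both. By this length the 2 were near equal in LPS alone. Scap, the escort of SREBP, ran from 899 to 1057 and also passed in none.

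**Figure D3:**
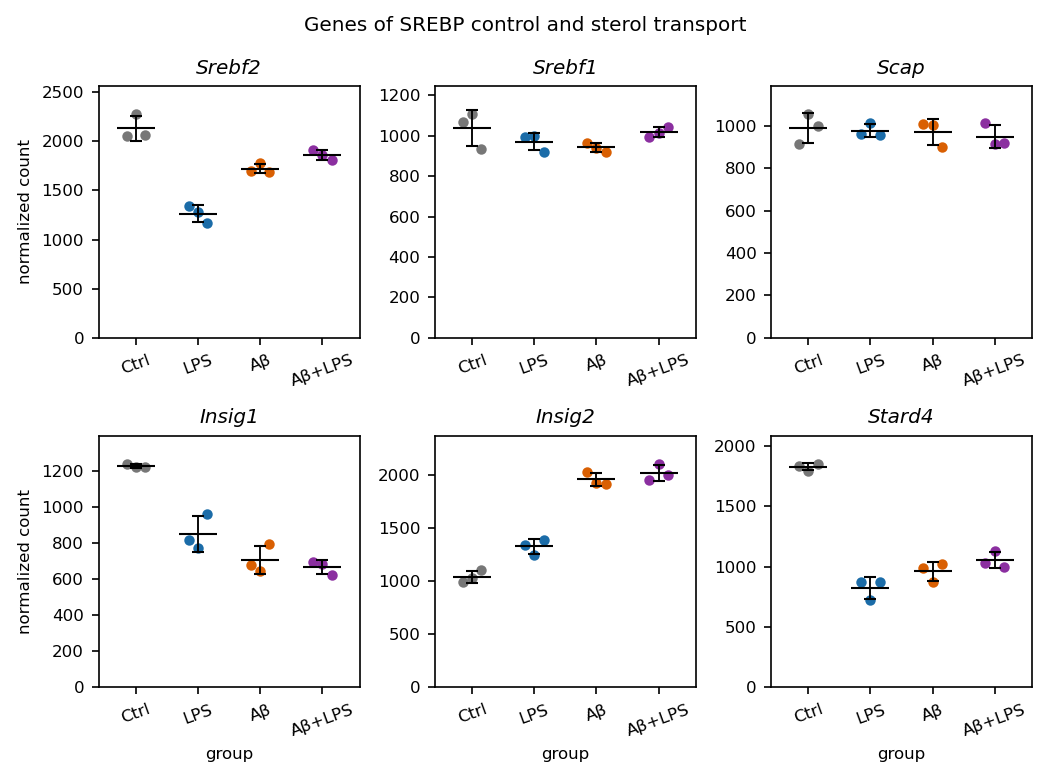
Normalized counts (vertical axis, from 0) of Srebf2, Srebf1, Scap, Insig1, Insig2 and Stard4 in each library (points) of the 4 groups (horizontal axis), with the mean and SD as bars. Srebf2 and Stard4 are lowest in LPS, Insig1 falls and Insig2 rises from Ctrl over LPS to the Aβ groups, and Srebf1 and Scap stay within 899 to 1108.

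Insig1 and Insig2 encode the proteins that retain SCAP, and of these Insig1 is itself a target of SREBP. They moved in opposite directions in all 3 comparisons. Insig1 (chromosome 5, 28071363 to 28078662, plus strand) was at 1240.5, 1223 and 1225 in Ctrl, 818, 771 and 963 with LPS, 677, 647 and 796 with Aβ and 695, 684 and 622 with both. Insig2 (chromosome 1, 121304353 to 121332589, minus strand) was at 997, 1029 and 1109 in Ctrl, 1342, 1254 and 1394 with LPS, 2033, 1934 and 1919.9 with Aβ and 1957, 2110.3 and 2001 with both. For both genes Ctrl lay apart from the other groups and Aβ overlapped Aβ+LPS. LPS lay between them, apart from both for Insig2, while for Insig1 its lowest library was under the highest of Aβ. Insig1 changed by -0.54, -0.80 and -0.35, and Insig2 by 0.35, 0.91 and 0.61, in LPS vs. Ctrl, Aβ vs. Ctrl and Aβ+LPS vs. LPS (limma, adjusted p = 1.1e-05, 1.1e-08 and 0.00097 for Insig1 and 1.9e-05, 1.9e-12 and 3.9e-09 for Insig2). Per kilobase, the ratio of Insig1 to Insig2 went from 1.32 ± 0.0784 in Ctrl to 0.717 ± 0.0511 with LPS, 0.405 ± 0.0523 with Aβ and 0.371 ± 0.0253 with both, which means that the more abundant of the pair was Insig1 in Ctrl and Insig2 elsewhere. Stard4, a cytosolic protein that moves cholesterol between membranes, was at 1833, 1791 and 1850.0 in Ctrl, 874, 722 and 875 with LPS, 989, 873 and 1022 with Aβ and 1032, 1126 and 999 with both. It was highest in Ctrl by far, and its lowest Aβ library (873.2) lay under the highest of LPS (875.5). It changed by -1.15, -0.93 and 0.36.

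Fatty acid genes did not share a direction. In LPS vs. Ctrl 2 of 7 fell and 2 rose, in Aβ vs. Ctrl 1 fell and 3 rose, and in Aβ+LPS vs. LPS 1 fell and 4 rose. Fasn (chromosome 11, 120805846 to 120824547, minus strand), fatty acid synthase, was at 1369, 1584 and 1354 in Ctrl, 1162, 1054 and 1074 with LPS, 635, 689 and 699 with Aβ and 694, 622 and 772 with both. All 6 libraries with Aβ were under all 6 without it, as for Dhcr7 and Lbr. Its changes were -0.39 ± 0.08, -1.09 ± 0.08 and -0.66 ± 0.08 (limma, adjusted p = 0.00025, 2.8e-11 and 1.8e-07).

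Upstream of Fasn, Acly and Acss2 make cytosolic acetyl-CoA from citrate and from acetate, and Acaca turns it into malonyl-CoA. Acly was the highest of the 33 genes in Ctrl per length (1011 ± 25.8 normalized counts per kilobase) and among the steadiest, at 5180 to 5431 in Ctrl, 5035 to 5054 with LPS, 5247 to 5454 with Aβ and 5399 to 5825 with both. It rose by 0.17 ± 0.04 for Aβ+LPS vs. LPS (limma, adjusted p = 0.0015). Acss2 was at 530.0, 645 and 544 in Ctrl, 667, 583 and 703 with LPS, 829.6, 914 and 817 with Aβ and 874, 867 and 963 with both, and both Aβ groups were above all other libraries. It rose in Aβ vs. Ctrl (0.58 ± 0.08) and Aβ+LPS vs. LPS (0.47 ± 0.08). For LPS vs. Ctrl Acss2 had 0.19 ± 0.08 and adjusted p = 0.069, and passed without Ctrl replicate 2 (0.27, adjusted p = 0.0093), without LPS replicate 2 (0.26, adjusted p = 0.012) or where libraries were scaled to the same total (0.30, adjusted p = 0.0038). Acaca rose in Aβ+LPS vs. LPS (0.23 ± 0.07), and 42.8% of the 100-base stretches of its longest transcript occur in another gene, Gm5182.

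Scd1 and Scd2 encode desaturases that place the double bond of oleate, and Scd2 was by far the more abundant of the pair. In Ctrl, the mean of Scd2 was 756 normalized counts per kilobase and that of Scd1 18.8, and their ratio (Scd1 over Scd2) was 0.0217 to 0.0311 over the 4 group means. Scd2 was at 4129.9, 4243 and 4014 in Ctrl, 5017, 4616 and 5000.4 with LPS, 5468, 5437 and 5791 with Aβ and 5865, 5692 and 5869 with both, with every LPS library above Ctrl and every Aβ library above LPS. It rose by 0.24, 0.43 and 0.25. Scd1 was at 98.3, 81.2 and 96.1 in Ctrl, 144, 130.1 and 134 with LPS, 137, 131 and 122 with Aβ and 115, 103 and 121 with both, and rose in LPS vs. Ctrl (0.56 ± 0.13) and Aβ vs. Ctrl (0.50 ± 0.13). In Aβ+LPS vs. LPS it had -0.27 ± 0.13 and adjusted p = 0.089. Elovl6, which lengthens palmitate to stearate, fell in LPS vs. Ctrl (-0.55 ± 0.14) and had library values from 91.7 to 172.

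To see where Aβ acted differently in the presence of LPS, the calls of Aβ vs. Ctrl and Aβ+LPS vs. LPS were crossed, which share no library. Hmgcs1, Idi1, Cyp51, Msmo1, Hsd17b7, Srebf2 and Stard4, 7 of the 33 genes, were lower with Aβ in the absence of LPS and higher with Aβ in its presence. Among all genes tested, 81 of 14324 did so, that is 0.565%. All 7 had a passing interaction, which calls in opposite directions make likely beforehand. In Aβ+LPS vs. Aβ none of the 33 genes passed, and for these 7 Ctrl had the highest mean and LPS the lowest. The crossing thus largely restates their fall in LPS vs. Ctrl and is no separate evidence. Hsd17b7 did not meet both calls without Ctrl replicate 3, without Aβ replicate 1 or with libraries scaled to the same total. This left 6 of the 33 genes, and in that scaling 44 of all genes met both. None of the 33 was higher with Aβ in the absence of LPS and lower in its presence, against 0.74% of all genes. Another 6 fell in both (Mvk, Tm7sf2, Lbr, Dhcr7, Insig1 and Fasn, against 23.5% of all genes), 5 rose in both (Ggps1, Lss, Insig2, Acss2 and Scd2, against 23%) and 5 rose in Aβ+LPS vs. LPS alone (Pmvk, Fdft1, Sqle, Acly and Acaca, against 4.23%). Fdps, Nsdhl, Ebp and Sc5d passed only in Aβ vs. Ctrl, where they fell, and Mvd and Scd1 only there, where they rose. Acat2, Srebf1, Scap and Elovl6 passed in neither.

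The interaction passed for 9 of 12 sterol genes, all with a higher value with LPS, 6 of 8 mevalonate genes, 5 higher and 1 lower, 4 of 6 sterol sensing genes, 3 higher and 1 lower, and 4 of 7 fatty acid genes, 2 higher and 2 lower. It was largest for Idi1 (1.48 ± 0.16), Fdps (1.31 ± 0.32), Stard4 (1.28 ± 0.10) and Hsd17b7 (1.13 ± 0.12), and Ggps1, Insig2, Scd1 and Scd2 were the 4 with a lower value. Because the interaction equals Aβ+LPS vs. Aβ minus LPS vs. Ctrl, and 20 of 14324 genes passed in Aβ+LPS vs. Aβ, its values largely mirror those of LPS vs. Ctrl and are no second line of evidence. For Acly (0.16) and Scd2 (-0.18) the interaction was small, and leaving out 1 library ended its call. For Acly this held for Ctrl replicates 2 and 3, LPS replicates 1 and 3, Aβ replicates 1 and 2 and Aβ+LPS replicates 1 and 3 (0.14 to 0.16, adjusted p from 0.051 to 0.098). For Scd2 it held for Ctrl replicates 1 and 3, LPS replicates 1 and 3, Aβ replicate 3 and Aβ+LPS replicate 2 (-0.18 to -0.15, adjusted p from 0.055 to 0.085). Without Ctrl replicate 3, the interaction also passed for Srebf1 (0.27, adjusted p = 0.017) and for Dhcr7 (0.25, adjusted p = 0.041, as without Aβ replicate 2, 0.26), and without Ctrl replicate 2 (-0.32) or Aβ+LPS replicate 3 (-0.31) for Mvd. With libraries scaled to the same total, it passed for Mvd (-0.35) and did not for Nsdhl (0.32, adjusted p = 0.057), Ebp (0.23, adjusted p = 0.056) and Acly.

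**Figure D4:**
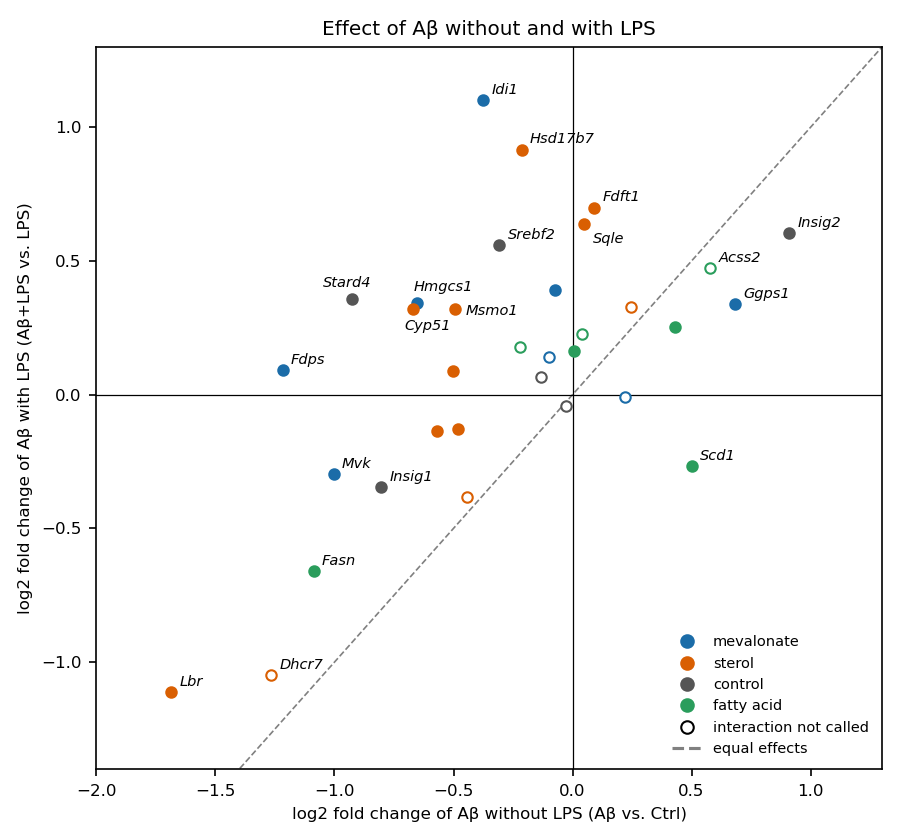
Log2 fold change of Aβ+LPS vs. LPS (vertical axis) against that of Aβ vs. Ctrl (horizontal axis) for the 33 genes, coloured by role, filled where the interaction passed. Points above the dashed line of equal effects had a higher value of Aβ in the presence of LPS. The 7 genes called lower in Aβ vs. Ctrl and higher in Aβ+LPS vs. LPS lie in the upper left part. That part also holds genes not called in both, such as Fdps.

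In Aβ+LPS vs. Aβ, which asks what LPS did to cells that already had Aβ, none of the 33 genes passed at an adjusted p under 0.05 by limma, edgeR or DESeq2. At an unadjusted p under 0.05, limma and edgeR gave 2, Pmvk and Sc5d, and DESeq2 gave 1, Pmvk, when 6.36% of all genes did so by limma. Across all genes, 20 passed after adjustment. Log2 fold changes of the 33 genes in Aβ+LPS vs. Aβ ran from -0.21 to 0.28, and their median was 0.04. For Srebf2 the value was 0.11 with a 95% interval of -0.003 to 0.23, for Hmgcs1 0.04 with -0.07 to 0.14, for Sqle 0.04 with -0.09 to 0.17 and for Idi1 0.04 with -0.20 to 0.28, where LPS vs. Ctrl gave -0.76, -0.96, -0.55 and -1.44. Of the 33 genes, LPS was the group with the lowest mean for 15, Ctrl for 7, Aβ+LPS for 7 and Aβ for 4, and Ctrl was the highest for 21. The same was not counted for all genes, so these numbers are not read as particular to the 33.

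Genes around the pathway that are not among the 33 were read by lists of roles. Of 19 other fatty acid genes tested, of 23, 4 rose and 9 fell in LPS vs. Ctrl, 6 and 8 for Aβ vs. Ctrl, and 6 and 6 for Aβ+LPS vs. LPS. Dgat2, which makes triglyceride, was at 36.5, 20.6 and 26.6 in Ctrl, 91.7, 71.5 and 73.1 with LPS, 534, 612 and 471 with Aβ and 591, 531 and 605 with both, a rise on the log2 scale of 4.25 for Aβ vs. Ctrl and 1.49 in LPS vs. Ctrl. Acsl1, which activates fatty acids with CoA, rose by 2.42 and 0.82, and Lpin1 and Fads2 fell in Aβ vs. Ctrl (-1.75 and -1.66). Of 12 genes that use isoprenoids, 2 rose and 3 fell in LPS vs. Ctrl, 3 and 5 for Aβ vs. Ctrl, and 4 and 2 for Aβ+LPS vs. LPS, and the largest change was that of Pdss1, a gene of ubiquinone side chain synthesis, in Aβ vs. Ctrl (-0.89).

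Of 14 genes of oxysterols and sterol efflux, 2 rose and 10 fell in LPS vs. Ctrl, 4 and 10 for Aβ vs. Ctrl, and 3 and 9 for Aβ+LPS vs. LPS. Ch25h makes an oxysterol that promotes the retention of SCAP by INSIG. It was at 103, 118 and 99.2 in Ctrl, 318, 368 and 339 with LPS, 233, 232 and 227 with Aβ and 157, 153 and 187 with both, with LPS alone highest. Its changes were 1.67 ± 0.11, 1.11 ± 0.11 and -1.04 ± 0.11 in LPS vs. Ctrl, Aβ vs. Ctrl and Aβ+LPS vs. LPS (limma, adjusted p = 4.6e-11, 1.1e-08 and 4.9e-08). Apoe, a lipid carrier secreted by macrophages, had the largest fall, from 4671 in Ctrl to 567 with LPS, 76.9 with Aβ and 108 with both as means, while Abca1, the pump that hands cholesterol to it, rose from 3160.3 to 5622, 14787 and 15955. Cyp27a1, which makes another oxysterol, and Nr1h3, which encodes the oxysterol receptor LXR alpha, fell in Aβ vs. Ctrl (-2.86 and -1.97) and in LPS vs. Ctrl (-1.23 and -0.95). Apoe was also the only gene named here that passed in Aβ+LPS vs. Aβ (0.48, adjusted p = 0.016).

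**Figure D5:**
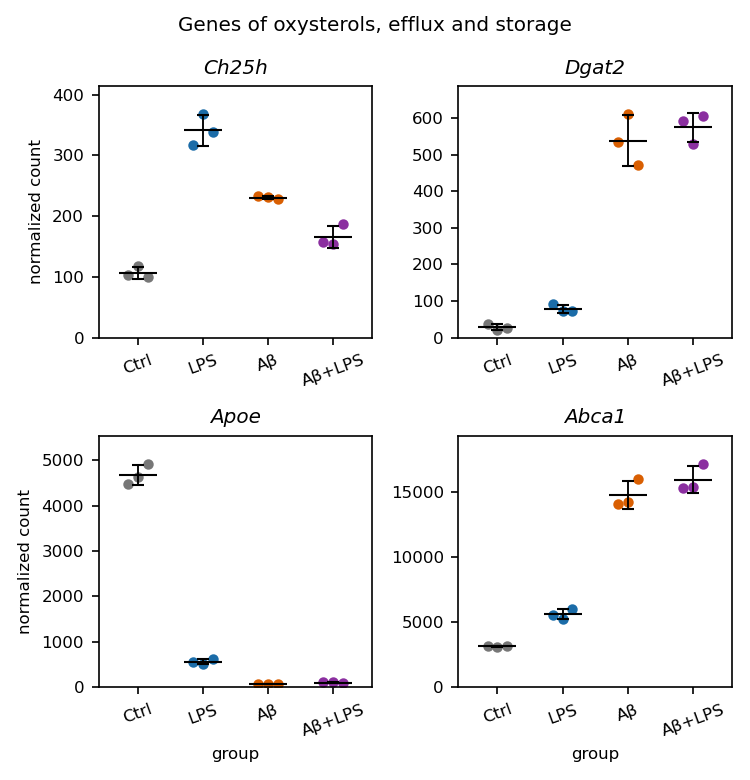
Normalized counts (vertical axis, from 0) of Ch25h, Dgat2, Apoe and Abca1 in each library (points) of the 4 groups (horizontal axis), with the mean and SD as bars. Ch25h is highest in LPS, Dgat2 and Abca1 are highest in both Aβ groups, and Apoe is highest in Ctrl.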

How the data were processed

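Each deposited signal value is the number of reads in a gene over the size factor that DESeq2 gave the library, which the authors obtained after mapping with HISAT2 2.1.0 to GRCm38 and counting with featureCounts 1.6.0, as the submitters' processing notes name them. Columns with the authors' own fold changes and p-values were not used. Whole reads were recovered from the deposited signal, with 99.97 to 100% of values within 0.05 of a whole read, at 23415609 to 29690965 reads in genes per library. Genes were matched by symbol, 32 of 33 from the tables and Tm7sf2 by its gene ID. The members, roles and gene lists were chosen with earlier results of these data known.

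The 14324 genes whose mean reached 10 in some group were tested with limma 3.58.1 and its intensity trend on log2(normalized count + 1). Group was the sole term and all 12 libraries entered, which left 8 residual degrees of freedom. Fold changes are on this scale, which understates those of low genes. Levels per kilobase divide by the length of all annotated exons of a gene, merged over its transcripts. Ranks and ratios per kilobase depend on that choice of length. p-values were adjusted over genes by Benjamini and Hochberg, with a threshold of 0.05. Alternatives were pseudocounts of 0.5 and 5, no filter, a mean of at least 50, the same total per library, only the groups compared, a replicate block, each library left out, and edgeR 4.0.16 and DESeq2 1.42.0 on the recovered reads. The scripts were tested on simulated data, and R 4.3.3 and Python 3.11.15 were used. All 33 genes are described. Outside them at most 4 genes per list and comparison, those with the largest change past the threshold, are named, and Ch25h whatever its values. Some genes of the naming rule, and the list that holds them, are not reported here. Promoters of genes with TCACNCCAC were to be printed, and those of Msmo1 and Srebf2 were added after the values were seen. Positions are those of GENCODE M21, and uncertain genes were found by searching each stretch of 100 bases, the read length, of their longest transcript. All transcripts of other genes were searched, on both strands. The paper names a stranded library kit, so reads of a gene on the opposite strand may have been told apart.

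Same-numbered libraries of different groups did not deviate together across genes (r of -0.086 to 0.037, against -0.046 to 0.054 for other pairs), so replicate numbers were not taken to pair the cultures.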

Additional observations from a re-analysis of the deposited data

Results flagged for a closer look

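The effect of Aβ differed between cells with and without LPS for 23 of the 33 genes, by a limma test of the difference itself. Of these, 19 had a higher and 4 a lower value with LPS, against 15.2% and 16.6% of all genes tested. The values below are Aβ+LPS vs. LPS minus Aβ vs. Ctrl on the log2 scale. In the mevalonate route the difference was 1.48 for Idi1, 1.31 for Fdps, 0.99 for Hmgcs1, 0.71 for Mvk, 0.47 for Pmvk and -0.35 for Ggps1. In the sterol route it was 1.13 for Hsd17b7, 0.99 for Cyp51, 0.82 for Msmo1, 0.61 for Fdft1, 0.59 for Sqle, 0.59 for Sc5d, 0.57 for Lbr, 0.44 for Nsdhl and 0.35 for Ebp. Among genes that sense or carry sterols it was 1.28 for Stard4, 0.87 for Srebf2, 0.46 for Insig1 and -0.30 for Insig2. Among fatty acid genes it was 0.43 for Fasn, 0.16 for Acly, -0.18 for Scd2 and -0.77 for Scd1. The 19 positive values took 4 forms by the calls of the 2 comparisons. For Idi1, Hmgcs1, Cyp51, Msmo1, Hsd17b7, Srebf2 and Stard4 the effect of Aβ changed its direction, from a fall in Aβ vs. Ctrl to a rise in Aβ+LPS vs. LPS. In each of them Ctrl had the highest mean and LPS the lowest, so this form largely mirrors the fall in LPS vs. Ctrl. For Mvk, Lbr, Insig1 and Fasn both comparisons gave a fall, which was smaller in the presence of LPS. Fdps, Nsdhl, Ebp and Sc5d fell in Aβ vs. Ctrl and did not pass the test in Aβ+LPS vs. LPS, and Pmvk, Fdft1, Sqle and Acly did not pass in Aβ vs. Ctrl and rose in Aβ+LPS vs. LPS. Because none of the 33 genes passed in Aβ+LPS vs. Aβ, the other forms and the negative values also largely mirror LPS vs. Ctrl. For Pmvk and Acly, LPS vs. Ctrl gave -0.22 and -0.08 and did not pass.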

How the results depend on the processing

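The counts of the 33 genes passing in each direction, or in the crossing of calls, were taken again in each refit. All 183 counts so obtained stayed within 1.5 times their main value. Those of Aβ+LPS vs. Aβ were 0 throughout. Leaving out 1 library gave 5 to 6 higher and 19 to 21 lower in LPS vs. Ctrl, 6 to 7 and 16 to 17 for Aβ vs. Ctrl, 17 and 4 to 6 for Aβ+LPS vs. LPS, 18 to 20 and 3 to 5 in the interaction, and 6 to 7 genes lower with Aβ without LPS and higher with it. No direction of a called value reversed. Besides the calls named beside their genes, the fall of Mvk in Aβ+LPS vs. LPS was lost with no filter (adjusted p = 0.055), with only the groups compared (0.067) and with DESeq2 (0.068), the interaction of Acly with no filter (0.077), the same total (0.61) and edgeR (0.061), and that of Scd2 with no filter (0.065). Pmvk passed in LPS vs. Ctrl with a mean of at least 50 (adjusted p = 0.049), Acss2 with edgeR (0.044), and in Aβ vs. Ctrl Sqle (0.038) and Acly (0.021) with the same total.

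Counts over all genes moved more. With the same total per library, 2020 genes were lower in LPS vs. Ctrl, 1323 were higher and 3663 lower in the interaction, and 44 were lower in Aβ vs. Ctrl and higher in Aβ+LPS vs. LPS. In Aβ+LPS vs. Aβ, where 4 genes were higher and 16 lower, only the groups compared gave 37 and 50, DESeq2 17 and 30, edgeR 10 higher, no filter 9 lower, and leaving out 1 library 1 to 3 higher and 6 to 14 lower. Leaving out 1 library gave 67 to 82 genes lower in Aβ vs. Ctrl and higher in Aβ+LPS vs. LPS. The cause was not tested. With the replicate number as a block the 33 genes counted 5 higher and 20 lower in LPS vs. Ctrl, 7 and 17 for Aβ vs. Ctrl, 17 and 6 for Aβ+LPS vs. LPS and 19 and 4 in the interaction. The block changed the call of Pmvk in LPS vs. Ctrl (adjusted p = 0.041) and no other among the 33. For Scap, which passed in no comparison, the 95% interval of LPS vs. Ctrl was -0.15 to 0.12, the precision that 3 cultures a group gave.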
